A study of Mus musculus with 8 samples.

Results

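The genes described here encode activating and inhibitory receptors of natural killer (NK) cells. The 10 genes, Ncr1, Klrk1, Klrc1, Klrc2, Klrd1, Klrb1c, Klre1, Klrg1, Klra8 and Cd244, were taken by symbol from a table of read counts for 21878 gene symbols, and all 10 were found. RNA was sequenced from the peripheral blood of wild-type female C57BL/6 mice aged 6 to 8 weeks, 4 controls and 4 stressed animals. The stressed mice spent 6 hours restrained in a ventilated tube, while control littermates stayed in their cage, and neither group had food or water in that time. The comparison asks how acute stress changes transcripts of blood cells. Whole blood was used, without a sort or gate, so NK cell transcripts are a small part of each library.

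NK cells are innate lymphocytes that kill infected or transformed cells. Whether an NK cell responds is set by the balance between activating receptors, which signal through adaptor proteins with tyrosine motifs, and inhibitory receptors, many of which recognise MHC class I molecules on healthy cells. In mice many of these receptors are C-type lectin-like proteins encoded side by side in a cluster called the NK gene complex.

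In the GENCODE M21 annotation of GRCm38 (mm10), 8 of the 10 genes lie on chromosome 6. Klrg1 is at chr6:122270596-122282882, apart from the cluster that holds Klrb1c (chr6:128778485-128789215), Klre1 (chr6:129577905-129585827), Klrd1 (chr6:129591782-129598775), Klrk1 (chr6:129610323-129623864), Klrc2 (chr6:129647496-129660689), Klrc1 (chr6:129666015-129678973) and Klra8 (chr6:130115226-130129898). Klre1 and Klrd1 are on the plus strand and the other 6 on the minus strand. Ncr1 is on the plus strand of chromosome 7 (chr7:4337724-4345164) and Cd244, listed there as Cd244a, on that of chromosome 1 (chr1:171559193-171609746). All are annotated as protein-coding genes.

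Several members resemble other genes in sequence, and their counts are uncertain to that extent. Of the 50-base windows in the annotated transcripts of Klrc1, 38.6% also occur in another gene, most often in Klrc2. For Klrc2 this share was 16.3%, for Klra8 33.1%, shared most with the pseudogene Klra14-ps, and for Klrb1c 17%. Exons of Klrb1c overlap those of Gm44511 on the same strand over 13.9% of their length. Klre1 shared 0.308% of its windows, and Ncr1, Klrk1, Klrd1, Klrg1 and Cd244 shared 0%.

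Promoter sequences from RefSeq (GRCm38.p6), each running from 250 bases before to 50 bases after a gene start, were found for 8 of the 10 genes and not for Klrd1 and Klrg1. They were searched on both strands for TGTGGTT, a motif of Runx factors, and for AGGTGTGA, a motif of T-box factors, because both factor families are known from NK cells. The Runx letters were found in 3 of the 8 genes and in 5.27% of all 32851 promoter windows of the same length. The T-box letters were found in 0 of the 8 genes and in 1.28% of all windows. Klre1, Klrc2, Klra8 and Ncr1 each have more than 1 window, so a count of genes and a share of windows are unlike measures. The matches are printed 5′ to 3′ with the motif in capitals, to show where in each promoter it lies, and are a description of the letters only. RefSeq gives Ncr1 the starts 4337715 and 4337724, and the match begins 176 and 185 bases before them (printed from chr7:4337499-4337585, plus strand). In Klrk1 it begins 129 bases before the start at 129623864 (chr6:129623947-129624033, minus strand). Of the RefSeq starts of Klre1, 129578213 has the match 229 bases before it (chr6:129577963-129578030, plus strand), and the window of 129578286 has none. Both starts and the stretch printed for Klre1 lie after the GENCODE start of that gene.
Ncr1: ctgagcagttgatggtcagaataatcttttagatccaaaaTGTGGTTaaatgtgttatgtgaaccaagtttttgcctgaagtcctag
Klrk1: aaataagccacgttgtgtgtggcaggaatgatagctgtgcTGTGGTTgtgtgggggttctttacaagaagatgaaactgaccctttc
Klre1: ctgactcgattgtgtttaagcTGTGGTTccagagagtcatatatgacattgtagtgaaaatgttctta

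Control libraries held 31471145 to 39014775 counts and stress libraries 25978683 to 29655725. The mean share of haemoglobin transcripts was 58.5% with an SD of 5.17 for control (n = 4) and 68.4% with an SD of 6.06 for stress (n = 4). Stress replicate 3 had the highest share, 75.5%, and the fewest counts outside those genes, 6355715, while control replicate 3 had the lowest share, 51.9%, and the most counts outside them, 18774818. Summed over the 10 receptor genes, a control library had 2015 to 4128 counts and a stress library 1009 to 1410, and single genes had between 12 and 860. Levels are given as CPM, the count of a gene relative to the size of its library after scaling by TMM, a method that takes most genes as unchanged. Testing was limited to the 11718 genes that reached 10 counts in 4 or more samples, and the 10 receptor genes reached 10 counts in every sample. A gene passed at an adjusted p below 0.05 in the quasi-likelihood test of edgeR, with the Benjamini-Hochberg method applied over all genes tested.

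On the TMM scale 1 of the 10 receptor genes, Klrk1, was lower in the stress group and 0 were higher, against 3.69% lower and 10.4% higher among all 11718 genes (edgeR). At an unadjusted p under 0.05, 2 of the 10 were lower and 0 higher, against 13% lower and 18.2% higher among all genes (edgeR). At the adjusted threshold DESeq2 found 1 lower and 0 higher, against 4.76% and 12.2% of the 12532 genes to which it gave an adjusted p, and limma-voom 0 in either direction, against 3.84% lower and 11.6% higher. By the rule of the study, an absolute log2 fold change above 1 with an adjusted p below 0.01, 0 of the 10 genes were called with edgeR, DESeq2 or limma-voom. That rule called 1.69% of all genes higher and 0.0171% lower with edgeR. In 1 of the 10 genes every stress sample lay below every control sample, an order found in 9.88% of all genes, and in 0 every stress sample lay above, against 11.1% of all genes. The median log2 fold change of the receptor genes was -0.29 and that of all genes -0.03. In bulk RNA from blood, fewer NK cells and less receptor RNA per NK cell cannot be told apart.

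Klrk1 encodes NKG2D, an activating receptor for MHC class I-like proteins that appear on stressed, infected or transformed cells. It had 11.7, 11.9, 11.8 and 16.5 CPM in control replicates 1 to 4 and 8.34, 9.93, 10.5 and 9.51 CPM in stress replicates 1 to 4. All 4 stress samples lay below the lowest control sample, and control replicate 4 was the highest of the 8. Klrk1 fell by 0.44 on the log2 scale (SE 0.137, edgeR, adjusted p = 0.0486). The call lies at the threshold: with 1 sample left out in turn, the adjusted p of the same edgeR test ranged from 0.0476 to 0.162 and was below 0.05 only without stress replicate 3. Without control replicate 4 the log2 fold change was -0.28 (edgeR, adjusted p = 0.162), and in the other 7 of these fits it lay between -0.48 and -0.35. The call was also lost at a log2 fold change of -0.43 with RLE size factors (edgeR, adjusted p = 0.0567), limma-voom (adjusted p = 0.0592) and the replicate number as a block (edgeR, adjusted p = 0.0726). With total counts Klrk1 was at -1.21 and passed (edgeR, adjusted p = 0.00942).

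Ncr1 encodes NKp46, an activating receptor that marks NK cells in mice. Its level was 6.55, 6.19, 6.69 and 10.7 CPM in control replicates 1 to 4 and 5.40, 3.67, 7.44 and 3.97 CPM in stress replicates 1 to 4. Stress replicate 3 lay within the control range and the other 3 stress samples below it. Its log2 fold change was -0.58 (SE 0.235) and did not pass (edgeR, adjusted p = 0.113). Without stress replicate 3 it was -0.77 and passed (edgeR, adjusted p = 0.0393), and without control replicate 4 it was -0.34 (edgeR, adjusted p = 0.344). Ncr1 also passed as lower with total counts, at -1.38, and with total counts outside haemoglobin genes, at -0.98 (edgeR, adjusted p = 0.00716 and 0.00549).

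Klra8 encodes Ly49H, an activating receptor that recognises a protein of mouse cytomegalovirus. It stood at 3.94, 3.79, 4.02 and 7.19 CPM in control replicates 1 to 4 and at 2.19, 3.71, 7.29 and 2.40 CPM in stress replicates 1 to 4. Control replicate 4 and stress replicate 3 were the highest samples of their groups, and the groups overlapped. A log2 fold change of -0.33 (SE 0.352) did not pass (edgeR, adjusted p = 0.557). It was -0.034 without control replicate 4, -0.11 without stress replicate 1, -0.15 without stress replicate 4 and -0.76 without stress replicate 3, and passed in none of these 4 fits (edgeR, adjusted p = 0.0958 or higher). Scaled by total counts it was -1.19 and by total counts outside haemoglobin genes -0.74, and passed on both scales (edgeR, adjusted p = 0.0123 and 0.0326).

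Klrb1c encodes the activating receptor whose antibody is used to stain NK cells of C57BL/6 mice. Its values were 6.52, 7.45, 9.22 and 12.7 CPM in control replicates 1 to 4 and 8.16, 7.93, 13.7 and 7.97 CPM in stress replicates 1 to 4. The groups overlapped, with stress replicate 3 again highest. The log2 fold change was 0.06 (SE 0.228, edgeR, adjusted p = 0.896), and its sign turned to -0.14 without stress replicate 3, to -0.065 and -0.021 without control replicates 1 and 2, to -0.77 with total counts, where it passed (edgeR, adjusted p = 0.0495), and to -0.35 with total counts outside haemoglobin genes. Without control replicate 4 it was 0.29.

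Klrd1 encodes CD94, the chain with which the NKG2 proteins of Klrc1 and Klrc2 pair to bind the class I-like molecule Qa-1. It measured 11.1, 11.3, 12.4 and 12.4 CPM in control replicates 1 to 4 and 7.67, 10.3, 14.2 and 8.00 CPM in stress replicates 1 to 4. The control samples were close together, 3 stress samples lay below them and stress replicate 3 above them. A log2 fold change of -0.25 (SE 0.168) did not pass with all samples (edgeR, adjusted p = 0.325). Without stress replicate 3 it was -0.43 and passed (edgeR, adjusted p = 0.0383), while it was -0.12 without stress replicate 1 and -0.16 without stress replicate 4. On the scales of total counts and of total counts outside haemoglobin genes Klrd1 was at -1.11 and -0.68 and passed (edgeR, adjusted p = 0.01202 and 0.01205).

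Klrc1 encodes NKG2A, the inhibitory partner of CD94. It reached 2.09, 2.05, 3.11 and 3.12 CPM in control replicates 1 to 4 and 1.20, 1.81, 3.19 and 1.02 CPM in stress replicates 1 to 4. Here too 3 stress samples lay below every control sample and stress replicate 3 above. The log2 fold change was -0.59 (SE 0.322, edgeR, adjusted p = 0.229), and without stress replicate 3 it was -0.95 and passed (edgeR, adjusted p = 0.0427). Without stress replicate 4 it was -0.38 (edgeR, adjusted p = 0.444). It passed at -1.49 with total counts and at -1.025 with total counts outside haemoglobin genes (edgeR, adjusted p = 0.00839 and 0.0136).

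Klrc2 encodes NKG2C, the activating counterpart of NKG2A. It had 2.28, 1.41, 2.25 and 2.81 CPM in control replicates 1 to 4 and 1.07, 1.49, 2.43 and 1.79 CPM in stress replicates 1 to 4. Only stress replicate 1 lay below the control range. Stress differed from control by a log2 fold change of -0.39 (SE 0.286, edgeR, adjusted p = 0.380), which was -0.22 without control replicate 4 and -0.19 without stress replicate 1. Total counts gave -1.17 and total counts outside haemoglobin genes -0.77, both past the threshold (edgeR, adjusted p = 0.0192 and 0.0427).

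Klre1 encodes a lectin-like receptor that pairs with the products of Klri1 or Klri2. Its level was 3.10, 2.73, 3.63 and 4.61 CPM in control replicates 1 to 4 and 2.05, 2.60, 6.98 and 3.20 CPM in stress replicates 1 to 4. Stress replicate 3 was the highest of the 8 samples and stress replicates 1 and 2 the lowest. Its fitted log2 fold change was 0.03 (SE 0.327, edgeR, adjusted p = 0.960), and its sign turned to -0.39 without stress replicate 3, to -0.020 and -0.072 without control replicates 1 and 2, to -0.82 with total counts, to -0.38 with total counts outside haemoglobin genes and to -0.14 with limma-voom. Without stress replicate 1 it was 0.26, and with total counts without stress replicate 3 it was -0.99 and passed (edgeR, adjusted p = 0.0392).

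Klrg1 encodes an inhibitory receptor for cadherins that marks mature NK cells and effector T cells. Relative to its mean it was the most variable of the 10 in the stress group, but not in the control group. It had 1.22, 1.04, 1.29 and 1.86 CPM in control replicates 1 to 4 and 1.78, 0.557, 4.78 and 0.512 CPM in stress replicates 1 to 4. Behind these levels were 45 to 89 counts in the control samples and 12 to 63 in the stress samples. The log2 fold change was 0.40 (SE 0.582, edgeR, adjusted p = 0.687), with the sign turned to -0.50 without stress replicate 3, to -0.57 with total counts, to -0.07 with total counts outside haemoglobin genes and to -0.30 with limma-voom. Without stress replicate 4 it was 0.75, and with total counts without stress replicate 3 it was -1.16 and passed (edgeR, adjusted p = 0.0491).

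Cd244 encodes a receptor of the SLAM family that binds CD48 and can activate or inhibit. It is also found on some T cells and myeloid cells. Its level was 6.22, 5.03, 5.25 and 7.38 CPM in control replicates 1 to 4 and 7.14, 6.45, 6.30 and 6.76 CPM in stress replicates 1 to 4. All stress samples lay within the control range, and stress replicate 3 was the lowest of them. The log2 fold change was 0.17 (SE 0.150, edgeR, adjusted p = 0.474), and its sign turned to -0.58 with total counts and to -0.21 with total counts outside haemoglobin genes. Without control replicate 2 it was 0.093 and without control replicate 4 it was 0.31.

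**Figure D1:**
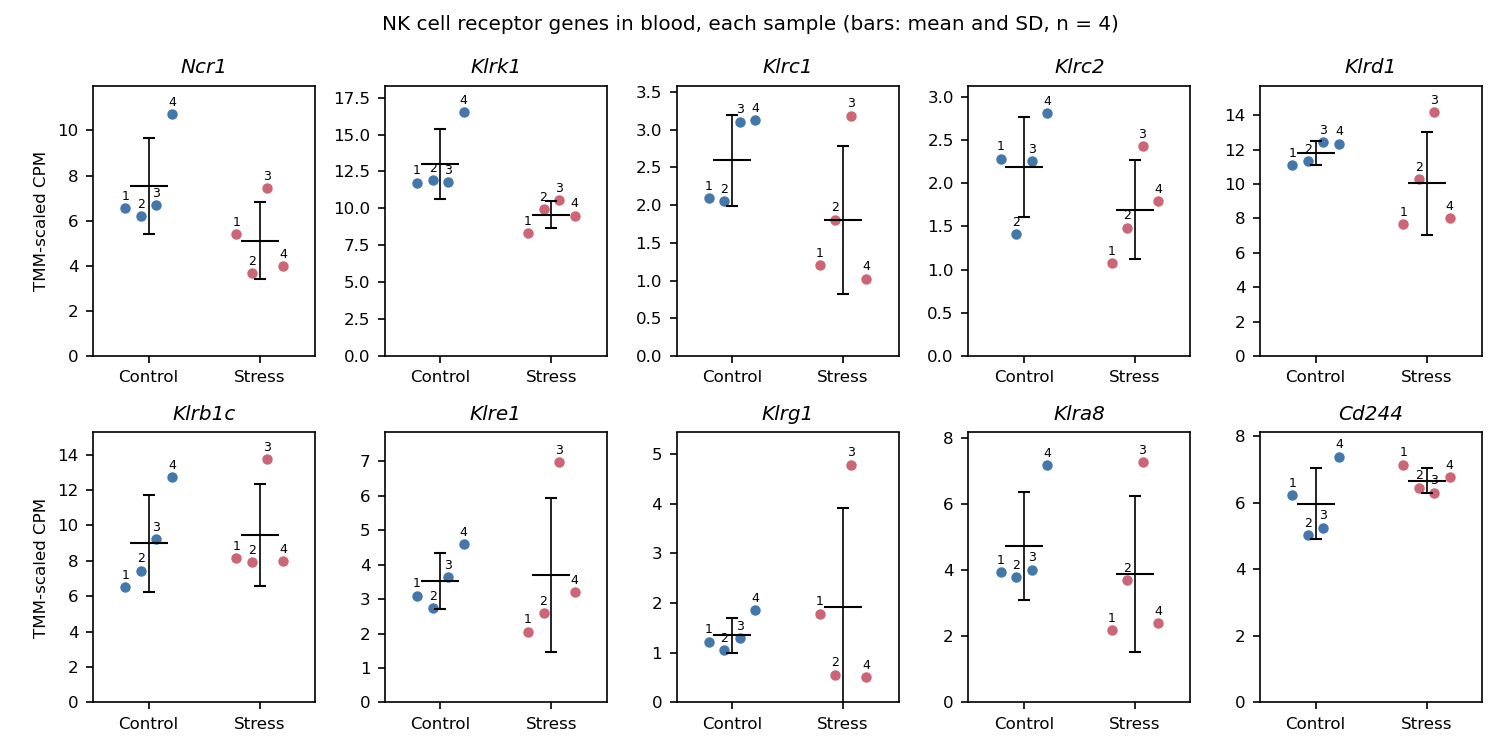
Level of each receptor gene in every sample, in TMM-scaled CPM; points are samples with their replicate number, and bars give the mean and SD of 4 samples. The groups are separate only for Klrk1, and stress replicate 3 is the highest stress sample for every gene except Cd244.

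How libraries are scaled moves all genes together, and the receptor genes with them. Scaled by total counts, the median over all genes moved to -0.82 on the log2 scale and the median over the receptor genes to -1.14. On that scale all 10 receptor genes had a negative log2 fold change and 7 of 10 passed as lower, against 49.6% of all genes (edgeR, adjusted p below 0.05). Across all genes 52 were higher and 5811 lower on that scale, in place of 1222 higher and 432 lower with TMM. In 7 of the 10 genes every stress sample lay below every control sample in CPM of total counts, against 23.5% of all genes.

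Total counts include the haemoglobin genes, whose mean summed share was higher in the stress group, a difference that was not tested. The groups overlapped in that share, stress replicate 4 having 61.2% and control replicate 4 63.8%. Tested singly, 2 of 5 haemoglobin genes were higher with total counts (0.444% of all genes) and 1 of 5 with TMM (10.4%) (edgeR, adjusted p below 0.05). Scaled by the counts outside haemoglobin genes, an alternative chosen after seeing the data, 6 of the 10 receptor genes passed as lower, against 33.7% of all genes (edgeR), with a median log2 fold change of -0.71 beside -0.43 for all genes. In 3 of the 10 every stress sample lay below every control sample on that scale, against 24.6% of all genes. Without stress replicate 3, on the TMM scale, 4 of the 10 passed as lower (Ncr1, Klrk1, Klrc1 and Klrd1), against 3.14% of all genes. The median of the receptor genes was then -0.48 and that of all genes -0.01, and 9 of the 10 log2 fold changes were negative. With any other sample left out Klrk1 did not pass, and the median of the receptor genes lay between -0.35 and -0.11. Total counts without stress replicate 3, also chosen after seeing the data, gave 8 of the 10 lower against 26.4% of all genes (edgeR), and 8 with every stress sample below every control sample against 23.8%. The part of stress replicate 3's low depth and high haemoglobin share in these differences was not tested.

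**Figure D2:**
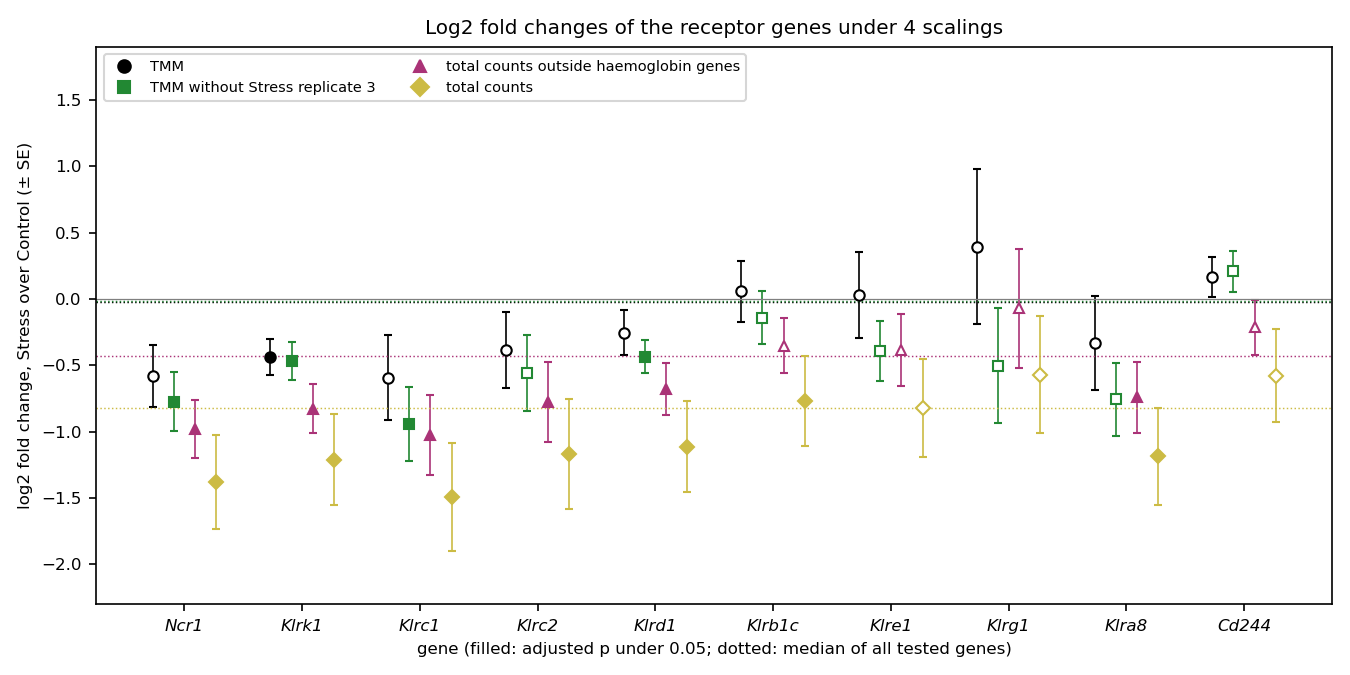
Log2 fold change of each receptor gene (stress over control, with SE) under TMM, TMM without stress replicate 3, total counts outside haemoglobin genes, and total counts; filled symbols have an adjusted p under 0.05 in edgeR, and dotted lines are the medians of all tested genes. With total counts all 10 values lie below 0, while the median of all genes also moves to -0.82.

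The ratio of a member's count to that of Ncr1 in the same sample does not depend on the scaling of libraries. It does depend on Ncr1, whose log2 fold change with TMM was -0.58 beside a median of -0.03 over all genes. A gene at that median would therefore also rise relative to Ncr1. Log2 ratios with 0.5 added to both counts were compared by a two-sided exact permutation test over all 70 assignments of the samples, for which 0.0286 is the smallest p. The counts of Klrb1c were 99.6%, 120%, 138% and 119% of those of Ncr1 in control replicates 1 to 4 and 151%, 217%, 185% and 201% in stress replicates 1 to 4. The ratio was higher in all 4 stress samples than in any control sample, by 0.66 on the log2 scale (exact permutation p = 0.0286, or 0.257 after Benjamini-Hochberg adjustment over the 9 ratios tested). The share of all genes with this order relative to Ncr1 was not counted. Cd244 was 95.0%, 81.3%, 78.4% and 68.8% of Ncr1 in control replicates 1 to 4 and 132%, 176%, 84.7% and 170% in stress replicates 1 to 4. The groups overlapped through stress replicate 3, and the log2 difference was 0.75 (exact permutation p = 0.0571, or 0.257 adjusted over the 9 ratios). The other 7 differences lay between -0.05 for Klrc1 and 0.52 for Klre1, and a ratio could pass after adjustment only if at least 6 of the 9 reached the smallest p, so the adjusted values say little. With 1 sample left out in turn the difference lay between 0.57 and 0.76 for Klrb1c and between 0.62 and 0.97 for Cd244, whose highest value, without stress replicate 3, had the smallest p, 0.0286. For Klrb1c the exact permutation p was 0.0571 without control replicate 1, 2 or 4 and 0.0286 in the other fits. Klre1 moved to 0.79 without stress replicate 1 (exact permutation p = 0.0286) and Klrg1 from 0.51 to 0.073 without stress replicate 3. Klrc1 turned to 0.14 without stress replicate 1, to 0.072 without stress replicate 4 and to 0.092 without control replicate 3, and Klrk1 from 0.15 to -0.010 without stress replicate 2. Klra8, at 0.18 with all samples, was 0.44 without stress replicate 1, 0.0046 without stress replicate 2 and 0.020 without stress replicate 3.

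In all 9 ratios to Ncr1 the SD was larger over the stress samples, which had fewer counts, than over the control samples, and Klra8 and Klrg1 had the smallest SDs over the control samples. The 9 ratios share the counts of Ncr1 (241 to 463 in the control and 79 to 124 in the stress samples), so they are not separate observations. For Klra8 the SD of the log2 ratio was 0.0753 over the control samples and 0.625 over the stress samples (n = 4 each), and for Klrg1 it was 0.0870 and 1.05. Klrg1 counts were 16.9% to 19.2% of Ncr1 in the control samples, while the stress samples had 33.1%, 15.2%, 64.3% and 12.9% in replicates 1 to 4. Klra8 had 145 to 278 counts in the control and 49 to 96 in the stress samples, and Klrg1 45 to 89 and 12 to 63. The difference in spread was not tested, nor the part of these counts in it.

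Against the T cell genes Cd3d, Cd3e and Cd3g, summed within each sample, Klrk1 was 12.4%, 12.1%, 10.5% and 15.6% in control replicates 1 to 4. It was 8.94%, 7.78%, 8.84% and 10.4% in stress replicates 1 to 4, so every stress sample lay below every control sample. The share of all genes with this order was not counted here either. The log2 ratio of Klrk1 differed by -0.48 (exact permutation p = 0.0286, or 0.286 after adjustment over the 10 ratios to these genes). Ncr1 differed by -0.63 with overlapping groups (exact permutation p = 0.0571, or 0.286 adjusted over the 10 ratios). The log2 ratio of Klrd1 was -3.12 ± 0.0332 (SD, n = 4) for control and -3.45 ± 0.261 for stress, with stress replicate 3 above all control samples (exact permutation p = 0.143). The other 7 differences lay between -0.68 for Klrc1 (exact permutation p = 0.0857) and 0.12 for Cd244, and that of Klrb1c was also above 0, at 0.02. Here too at least 6 of the 10 would have to reach the smallest p for any to pass after adjustment. The SD was larger over the stress samples in 9 of these 10 ratios, and that of Klrk1 was smaller (0.234 for control, 0.168 for stress).

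**Figure D3:**
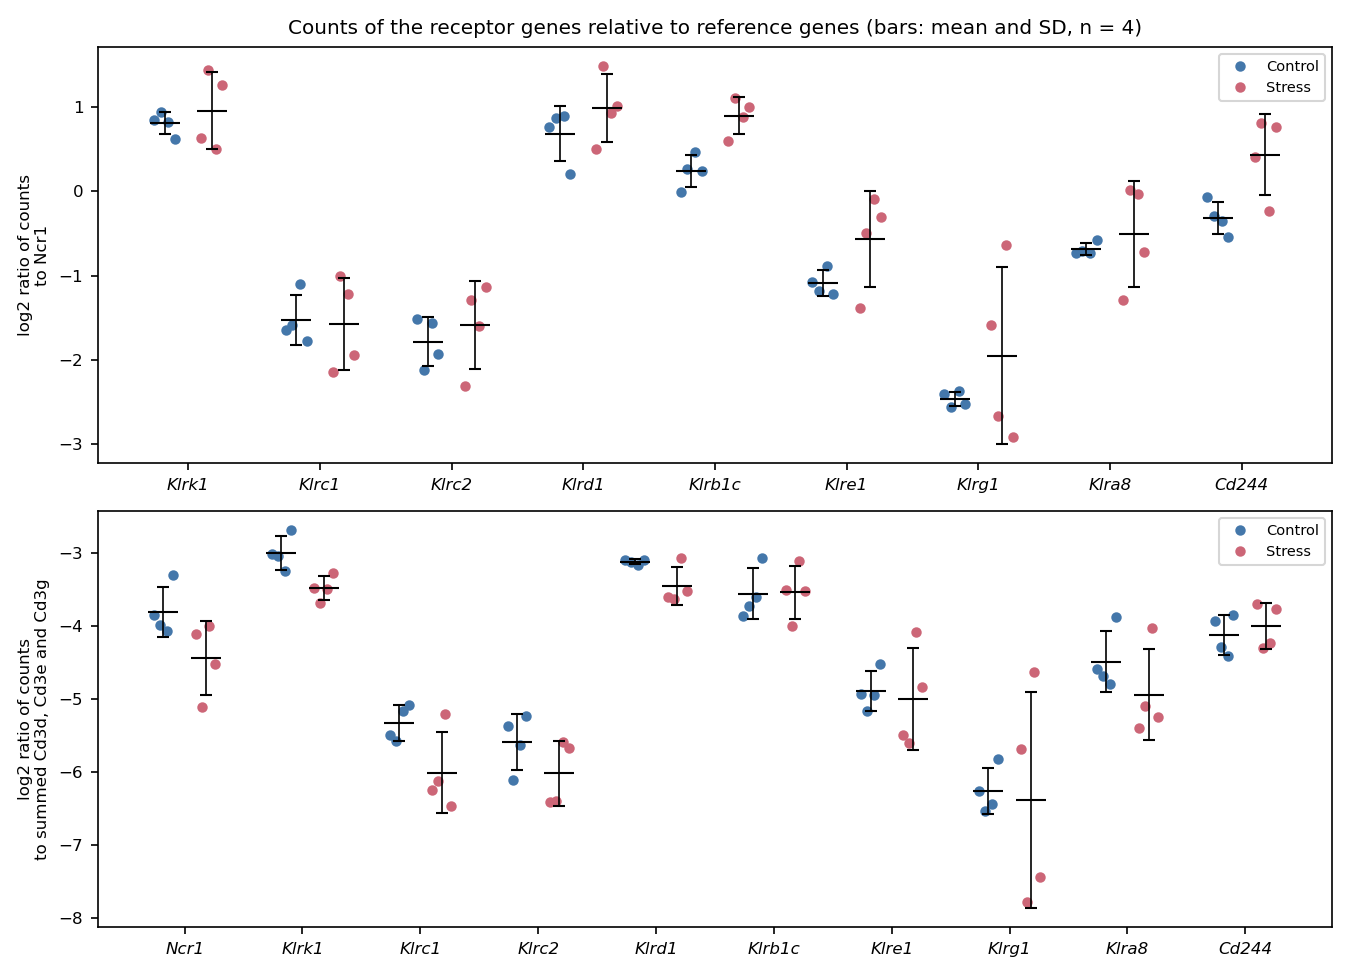
Log2 ratio of the counts of each receptor gene to those of Ncr1 (upper panel) and to the sum of Cd3d, Cd3e and Cd3g (lower panel) in each sample; bars give the mean and SD of 4 samples. Of the genes shown, only Klrb1c separates the groups in the upper panel and only Klrk1 in the lower one. The share of all genes that do so was not counted.

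Levels were compared between genes as CPM per kilobase of annotated exons. These lengths join all annotated exons of a gene and run from 1178 bases for Klra8 to 7183 for Klrk1, so the order depends on them. Before division by length Klrk1 was highest in the control group, at a mean of 12.99 CPM, with Klrd1 at 11.8. In the control group Klrd1 was highest at 9.21 ± 0.543 (SD, n = 4), followed by Ncr1 at 4.90 ± 1.39, Klra8 at 4.02 ± 1.39, Klrb1c at 3.03 ± 0.922 and Klrk1 at 1.81 ± 0.329. Below them came Klrc1 at 1.31 ± 0.304, Cd244 at 1.22 ± 0.220, Klre1 at 1.01 ± 0.233, Klrg1 at 0.957 ± 0.250 and Klrc2 at 0.377 ± 0.0992. Neighbours in this order overlapped within 1 SD of their means, except Klrd1 with Ncr1 and Klrg1 with Klrc2. In the stress group the highest and the lowest gene were again Klrd1, at 7.84 ± 2.34, and Klrc2, at 0.291 ± 0.0984.

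The genes whose variation within groups was most like that of the receptor genes were found by correlating log2 CPM, centred in each group, with the mean of the 10 over 8 samples. The ranking covered 10300 genes, with a floor of 1 on the mean CPM. The 10 genes in it with the highest Pearson r were Brk1 (r = 0.99), Tm2d2, Cox7c, Ctsz, Gfi1b, Eif3l, Vamp3, Ergic2, Phkg2 and Uqcc3 (r = 0.96). Without stress replicate 3 and control replicate 4, whose receptor levels were farthest from the median, r fell to between 0.37 for Phkg2 and 0.89 for Ergic2 over 6 samples. The 10 genes were picked for these correlations, which are therefore a description. The NK cell factor genes Eomes and Tbx21 had r = 0.56 and r = 0.61 over 8 samples, and -0.32 and 0.51 without both samples. For the T cell gene Cd3e r was 0.39 over 8 samples and 0.60 without both.

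Other genes of NK cells were compared on the same TMM scale, where 3.69% of all genes were lower and 10.4% higher, and with total counts, where 49.6% were lower and 0.444% higher. Of 9 tested genes of the Ly49 family, to which Klra8 belongs, 0 were lower and 1 higher with TMM (edgeR, adjusted p below 0.05, 1 and 1 at an unadjusted p under 0.05, 0 and 1 in DESeq2 and limma-voom), which for the higher count is near the 10.4% of all genes, and the median log2 fold change was -0.20. With total counts 5 of the 9 were lower and 0 higher. The gene that rose was Klra2, a family member known from myeloid cells, from 3.92 ± 0.638 to 10.2 ± 2.60 CPM (SD, n = 4, log2 fold change 1.40, edgeR, adjusted p = 0.00107). With total counts its log2 fold change was 0.65 and did not pass (edgeR, adjusted p = 0.0980). Of 8 other lectin genes of the NK gene complex 0 passed (edgeR, 1 lower and 0 higher at an unadjusted p under 0.05, and 0 with DESeq2 or limma-voom), and the most abundant, Cd69, had a log2 fold change of -0.06. With total counts 5 of the 8 were lower, and Cd69 was at -0.95.

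Among 16 other receptors of NK cells, 2 were lower and 2 higher with TMM, against 3.69% and 10.4% of all genes, and 9 were lower and 0 higher with total counts. Il18r1, a chain of the interleukin-18 receptor, fell by 0.67 on the log2 scale (edgeR, adjusted p = 0.00341) and Slamf6 fell by 0.54 (edgeR, adjusted p = 0.0154). Whether they fell in NK cells or in other blood cells cannot be told in whole blood. Fcgr3, an Fc receptor that is also found on myeloid cells, rose by 1.18 (edgeR, adjusted p = 0.00106), and Cd226, also found on platelets, by 0.68 (edgeR, adjusted p = 0.00807). With total counts the first pair had log2 fold changes of -1.45 and -1.30 and passed, while Fcgr3 at 0.48 and Cd226 at -0.09 did not.

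Receptors of this kind signal through adaptors, of which 3 of 15 tested rose and 0 fell with TMM, against 10.4% higher and 3.69% lower among all genes, while 0 rose and 5 fell with total counts. Tyrobp, the adaptor of activating Ly49 receptors, rose from 20.5 ± 4.53 to 38.9 ± 4.22 CPM (log2 fold change 0.93, edgeR, adjusted p = 0.00199), Fcer1g by 0.83 (edgeR, adjusted p = 0.00299) and the phosphatase gene Ptpn11 by 0.64 (edgeR, adjusted p = 0.00846). With total counts the log2 fold changes of these 3 were 0.20, 0.04 and -0.10 and did not pass. Tyrobp and Fcer1g are also abundant in myeloid cells. Of 9 tested ligand genes 0 passed (edgeR, 0 lower and 1 higher at an unadjusted p under 0.05, with 2 higher in DESeq2 and 1 in limma-voom), B2m having the most counts (log2 fold change 0.58, edgeR, adjusted p = 0.0653). With total counts 3 of the 9 were lower, and B2m was at -0.25.

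Of 11 transcription factors of NK cells, Nfil3 (log2 fold change 1.56, edgeR, adjusted p = 0.00250) and Zeb2 (0.61, edgeR, adjusted p = 0.0107) rose and 0 fell with TMM, against 10.4% and 3.69% of all genes. In whole blood the cells in which these factors changed cannot be told. At an unadjusted p under 0.05, 2 of the 11 factors were lower and 2 higher (13% and 18.2% of all genes, edgeR). At an adjusted p below 0.05 DESeq2 gave 2 lower and 2 higher (4.76% and 12.2%), and limma-voom 0 and 2 (3.84% and 11.6%). With TMM 8 of the 11 had a negative log2 fold change, with a median of -0.16. Their summed level, led by Ets1, was 512, 528, 548 and 534 CPM in control replicates 1 to 4. It was 469, 478, 420 and 475 CPM in stress replicates 1 to 4, lower in every stress sample. On this scale the sum of the other receptors was higher in every stress sample (control 285.9 to 345.2, stress 376.6 to 395.9 CPM). Its most abundant gene, Cd226, had means of 141.7 and 226.2 CPM. Yet 11 of the 16 log2 fold changes were negative (median -0.16). Sums of the adaptors (736.6 to 815 and 852.2 to 897.1) and of the ligands (1715 to 2017 and 2090 to 2782) were also higher in every stress sample. Among the ligands B2m had 703 and 1051 CPM, and 5 of the 9 log2 fold changes were negative (median -0.09). In CPM of total counts the groups overlapped for the other receptors (343.2 to 517.1 and 195 to 414.3), the adaptors (819.7 to 1367 and 455 to 971.9) and the ligands (2029 to 3445 and 1411 to 2299). With total counts 9 of the 11 factors were lower and 0 higher, and Nfil3 at 0.82 and Zeb2 at -0.11 did not pass. Of these factors, Eomes and Tbx21 had log2 fold changes of -0.16 and -0.14 that did not pass, and of -0.94 and -0.92 that passed with total counts. Of 16 effector and trafficking genes 0 passed (edgeR, 1 lower and 2 higher at an unadjusted p under 0.05, with 0 lower and 1 higher in both DESeq2 and limma-voom), and their median was -0.11. With total counts 11 of the 16 were lower and 0 higher, with a median of -0.92.

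Markers of other blood cells moved between the groups, and their part in the receptor results was not tested. Of the platelet markers 10 of 10 rose, of the neutrophil markers 8 of 11 and of the monocyte markers 6 of 12, while 2 monocyte markers and 6 of 12 B cell markers fell on the TMM scale (edgeR, adjusted p below 0.05), against 10.4% higher and 3.69% lower among all genes. With total counts 0 of the platelet markers and 4 of the neutrophil markers rose, 3 monocyte markers rose and 5 fell, and 12 of 12 B cell markers fell, against 0.444% higher and 49.6% lower among all genes. Of 15 T cell markers 0 passed (edgeR, 1 lower and 0 higher at an unadjusted p under 0.05, with 1 lower in DESeq2 and 0 in limma-voom), while 12 were lower with total counts, against the same 49.6%, with a median of -0.92. On the TMM scale the 10 receptor genes summed to 54.8, 52.9, 59.7 and 79.3 CPM in control replicates 1 to 4 and to 45.0, 48.4, 76.9 and 45.1 CPM in stress replicates 1 to 4. In CPM of total counts they summed to 64.03, 77.92, 105.8 and 79.75 in the control and 36.05, 35.2, 38.99 and 49.66 in the stress replicates. Every stress sample was then below every control sample, on a scale where the median log2 fold change of all genes was -0.82. With TMM, neutrophil markers, Csf3r being the most abundant, summed to 333, 289, 195 and 383 CPM in the control and 622, 598, 637 and 877 CPM in the stress replicates.

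Platelet markers, led by Ppbp, summed to 2050, 1454, 1398 and 2101 CPM in control replicates 1 to 4 and to 3223, 3537, 3852 and 3250 CPM in stress replicates 1 to 4. Monocyte markers, led by Lyz2, summed to 561, 454, 519 and 618 CPM and to 1338, 803, 1170 and 1193 CPM. On this scale the neutrophil, platelet and monocyte sums were higher in every stress sample than in any control sample. In CPM of total counts they overlapped, stress replicate 3 having 323 for neutrophil markers (control samples 346 to 425) and 1953 for platelet markers (2113 to 2480), and stress replicates 2 and 3 having 584 and 593 for monocyte markers (621 to 920.5). B cell markers, led by Cd79a, summed to 1181, 1429, 1457 and 1202 CPM in control replicates 1 to 4 and to 1009, 810, 995 and 1065 CPM in stress replicates 1 to 4, lower in every stress sample. T cell markers, led by Tcf7, summed to 780, 733, 785 and 742 CPM and to 654, 814, 689 and 687 CPM, and the groups overlapped.

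**Figure D4:**
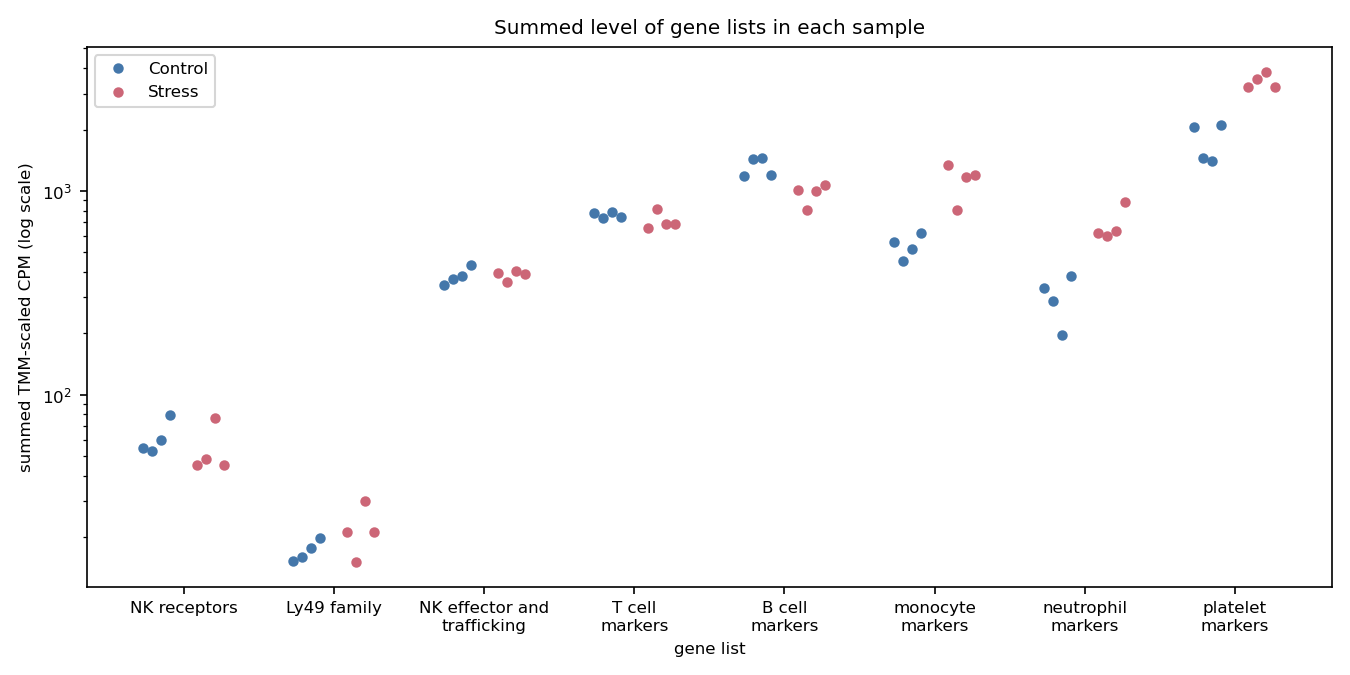
Summed TMM-scaled CPM of gene lists in each sample, on a log axis, with one point per sample. On this scale the groups overlap for the NK cell receptor genes, where control replicate 4 (79.3 CPM) and stress replicate 3 (76.9 CPM) are highest, and are separate for the B cell, monocyte, neutrophil and platelet markers. In CPM of total counts the receptor sums are separate (control 64.03 to 105.8, stress 35.2 to 49.66).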

How the data were processed

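Read counts per gene symbol were used as the authors deposited them, with 1 column per sample and no normalization. The submitters' processing notes name HISAT2, featureCounts and mm10, while versions, annotation and strand setting are not given in the sources used here. The 11718 genes that reached 10 counts in 4 or more samples were fitted with edgeR 4.0.16 in R 4.3.3 (TMM, robust quasi-likelihood fit, group as the only term, Benjamini-Hochberg adjustment), after the script was tested on simulated data. The SE is the absolute log2 fold change divided by the square root of the F statistic. DESeq2 1.42.0, limma-voom (limma 3.58.1), other scalings and filters, the replicate number as a block, and fits without 1 sample were alternatives. Counts given for gene lists in DESeq2 and limma-voom are at an adjusted p below 0.05. Members and lists were chosen with earlier results of these data known. Named genes are the members, up to 3 passing genes per list in the direction of its median and up to 2 in the other (otherwise its most abundant gene), the 10 most similar genes and 4 identity markers, of which 1 is not reported here. Only part of the genes that this rule names among other cell types is printed. Exon lengths are unions over GENCODE M21 exons. Protein sequences were not analysed here.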

Additional observations from a re-analysis of the deposited data

Results flagged for a closer look

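In 38 groups of 4 samples, the TMM-scaled CPM of the 10 receptor genes and their 9 log2 ratios to Ncr1, a sample lay far from the other 3 of its group in 4 groups. Its gap to the nearest sample was 0.89 to 0.97 of the range of the group. Chance alone gives about 1 in 20. Control replicate 4 was far above the other control samples for Ncr1 (10.7 CPM against 6.19 to 6.69), for Klrk1 (16.5 CPM against 11.7 to 11.9) and for Klra8 (7.19 CPM against 3.79 to 4.02). Stress replicate 3 was far above the other stress samples for Klrb1c (13.7 CPM against 7.93 to 8.16). In CPM of total counts control replicate 4 had 10.79 for Ncr1 (others 7.658 to 11.87) and 16.62 for Klrk1 (13.73 to 20.89). On that scale it had 7.233 for Klra8 (4.607 to 7.126), and stress replicate 3 had 6.967 for Klrb1c (5.766 to 8.77). Of these values only that of Klra8 lay outside the range of the other samples. The genes share their samples, so the 4 groups flagged with TMM are not independent, and their cause was not tested.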

How the results depend on the processing

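The number of receptor genes lower at adjusted p below 0.05 in edgeR was 1 with TMM. It was 0 with RLE size factors, 0 with limma-voom, 0 with the replicate block and 0 to 4 with 1 sample left out, while total counts alone gave 7, total counts outside haemoglobin genes 6, and total counts without stress replicate 3, added after seeing the data, 8 (26.4% of all genes). Genes with every stress sample below every control sample numbered 1 with TMM (9.88% of all genes), 7 with total counts (23.5%), 3 with total counts outside haemoglobin genes (24.6%), 8 with total counts without stress replicate 3 (23.8%), and 1 to 5 with 1 sample left out (11% to 15.5%), the 5 without stress replicate 3 (11.4%). The number higher was 0 in every alternative run. The median log2 fold change, -0.29 with TMM, was -1.14, -0.71 and -1.12 on those 3 other scales and -0.48 to -0.11 with 1 sample left out.

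Klrk1 lost its call in 10 of 20 alternatives, with an adjusted p of 0.0567 with RLE (edgeR), 0.0592 with limma-voom and 0.0726 with the replicate block (edgeR). The sign of Klrb1c turned with total counts (-0.77), total counts outside haemoglobin genes (-0.35) and total counts without stress replicate 3 (-0.77). That of Klre1 turned on the same scales (-0.82, -0.38 and -0.99), with limma-voom (-0.14) and with the replicate block (-0.044), that of Klrg1 (-0.57, -0.071 and -1.16) also with limma-voom (-0.30) while the replicate block gave 0.048, and that of Cd244 on the 3 scales only (-0.58, -0.21 and -0.40). With 1 sample left out the log2 fold change ranged from -0.14 to 0.29 for Klrb1c, from -0.39 to 0.26 for Klre1 and from -0.50 to 0.75 for Klrg1. The lowest values of all 3 came without stress replicate 3. From TMM to total counts the median of all genes moved from -0.03 to -0.82.

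Among all genes 432 were lower and 1222 higher. Total counts gave 5811 lower and 52 higher, total counts outside haemoglobin genes 3945 and 549, total counts without stress replicate 3 3094 and 90, and 1 sample left out 81 to 726 lower and 617 to 1425 higher. The study's rule called 198 higher and 2 lower, while DESeq2 gave 307 and 12, total counts 14 and 728, total counts outside haemoglobin genes 57 and 137, total counts without stress replicate 3 16 and 35, and 1 sample left out 76 to 340 and 1 to 8. Upper-quartile scaling and no count filter each gave 4 lower by that rule. The replicate block gave 240 genes lower, and 1 lower by the study's rule. Same-numbered samples had correlations of 0.06, 0.00, -0.04 and -0.16 in their deviations from the group means, and samples did not all correlate best with their own number, so the numbers were not taken as pairs.

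Receptor counts as low as 12 per sample limit what can be seen for Klrg1, Klrc1 and Klrc2. With 4 samples a group, a p that misses the threshold does not show that levels were equal.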
